A study of Danio rerio with 10 samples.

Results

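Genes for potassium channels and their accessory subunits, other than the EAG-type channels of the kcnh genes, were followed in the testes of adult zebrafish. The genes were chosen by symbol: every probe with a single gene symbol made of kcn and a further letter was taken, those of kcnh were left out, and where a gene had several probes the one with the highest average of the 10 arrays was kept. This gave 106 genes of 19260 measured, in 17 subfamilies. One further probe, which carries the symbols of both kcnma1a and kcnma1b, named no gene and was not used here.

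The testes came from wild-type males of the AB strain, 1 year old, with 1 whole-transcript array per sample. The TCDD group (5 arrays) had been held for 1 hour in water with 50 pg/ml TCDD, a dioxin and ligand of the aryl hydrocarbon receptor, once in week 3 and once in week 7 after fertilization. The DMSO group (5 arrays) had been given the solvent DMSO at the same ages. The design asks whether this early exposure is followed by different expression in the adult gonad. The arrays are labelled as biological replicates, and nothing in the labels says how many fish gave each RNA sample.

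Potassium channels let potassium ions pass through a cell's membrane down their gradient and so hold or restore its resting voltage. Voltage-gated channels (kcna, kcnb, kcnc, kcnd, kcnq) open when the membrane depolarizes. Inward rectifiers (kcnj) and tandem-pore leak channels (kcnk) set the resting voltage, while calcium-activated (kcnma, kcnn) and sodium-activated (kcnt) channels open with those ions. The products of kcnf, kcng, kcns and kcnv are silent subunits, which form working channels only together with others, and those of kcnab, kcne, kcnip and kcnmb are accessory subunits. In the testis such channels act in steroid-producing, contractile and germ cells, and in sperm they take part in volume control and in the start of swimming.

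Values are those the authors deposited, read as log2 from their range, so that a difference of 1 is taken as a doubling, and differences are TCDD minus DMSO throughout. Markers of the labelled tissue were bright: the 12 markers of spermatogenic cells, such as ddx4, dmc1 and sycp3, had a median percentile of 97.8 among all probes. The array that differed most from the rest was DMSO 1, whose correlations with the others averaged 0.918, against 0.952 to 0.961 for the remaining arrays. Its mean over the spermatogenic markers was 8.61, against 10.1 to 10.8 in TCDD arrays, and the highest DMSO value was 10.996. The marker tppp2 was an exception in that list: it was at the 43.2 percentile and read highest in DMSO 1 (7.02). The mean of DMSO 1 over 11 markers of intestine and exocrine pancreas was 12.1. That of TCDD 2 was 11.4, that of TCDD 3 10.0 and that of TCDD 4 9.60, while the lowest array of either group was at 7.68. Intestine and pancreas genes did not always go together. In TCDD 3 the intestine gene fabp2 read 11.7 and the pancreas gene cpb1 9.22, against 6.53 and 11.1 in TCDD 4. In such bulk samples fewer cells of a type and less RNA per cell cannot be told apart.

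Potassium channel genes reached the upper quartile of the probes less often than genes in general, and the few that did came from several subfamilies. Of the 106 genes 65 (61.3%) lay above the median of all probes in the table, against 81.5% of all genes, and 11 (10.4%) lay above the upper quartile of the probes, against 46.6% of all genes. These percentiles describe signal only. Probes differ in how well they bind, and no detection call was used, so that a percentile neither ranks transcripts nor shows that a gene is silent. For scale, the 9 measured markers of neurons and glia, cells that use many of these channels, had a median percentile of 61.1.

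Among the bright genes the inward rectifier kcnj13 was at the 96.1 percentile. In zebrafish its mutations alter the stripe pattern of the skin. The small-conductance calcium-activated channel gene kcnn1b was at 92.6 and the sodium-activated channel gene kcnt1a at 87.7. kcnab1b, an accessory subunit of voltage-gated channels related to the aldo-keto reductases, was at 85.1. The tandem-pore channel genes kcnk6 and kcnk5a were at 83.4 and 80.2, kcnj5, whose product in mammals is opened by G proteins, at 82.6, and kcnn4, the intermediate-conductance calcium-activated channel of mammalian blood cells and epithelia, at 80.2. The remaining genes above the upper quartile were kcnd1, a rapidly inactivating voltage-gated channel, at 78.2, kcnv1, a silent subunit, at 76.6, and kcnn2 at 76.0.

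By subfamily, kcnn had 3 of 5 genes above the upper quartile, more than any other subfamily in number. kcnj had 2 of 30 and kcnk 2 of 19, and kcnab, kcnd, kcnt and kcnv had 1 of 3 each. The tandem-pore genes lay mostly in a middle range, with 17 of 19 above the median probe and a median percentile of 59.3. The inward rectifiers spread most widely, from the 5.46 percentile for kcnj1a.5 to kcnj13, with 14 of 30 above the median probe. Among voltage-gated subfamilies only kcnd had a gene above the upper quartile: the brightest kcna gene, kcna4, was at 60.6, the brightest kcnb gene, kcnb2a, at 63.3, the brightest kcnc gene, kcnc3a, at 73.2, and the brightest kcnq gene, kcnq5b, at 65.3. The calcium sensors kcnip, partners of kcnd channels, had 1 of 7 above the median probe, kcnip2. kcnma1b, a gene for the large-conductance calcium-activated channel, was at 40.7. The silent and accessory subunit genes kcnf1a, kcng3, kcns3a and kcne4 were at 61.4, 58.3, 56.8 and 54.0. The plot of signal by subfamily shows how few points lie to the right of the upper quartile.

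**Figure D1:**
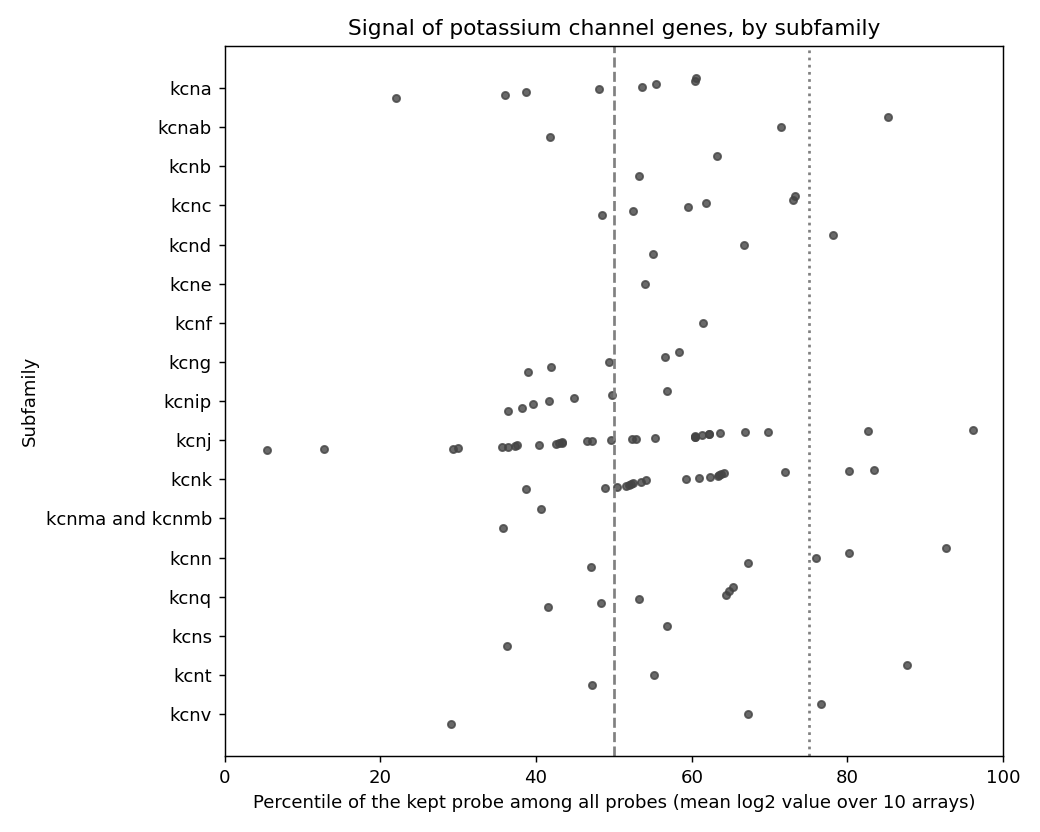
Percentile of each gene's kept probe among all probes of the table (x axis, from the mean log2 value over 10 arrays), with 1 point per gene and 1 line per subfamily (y axis). The dashed line marks the median probe and the dotted line the upper quartile, beyond which 11 of the 106 genes lie.

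A silent voltage-gated subunit gene, kcng1, was the only one of the 106 genes that differed between TCDD and DMSO testes at an unadjusted p under 0.05, and it was lower in TCDD. None passed after adjustment over all genes. In mammals the kcng1 product joins kcnb channels and changes how they open and close. kcng1 (probe 13136063) read 6.93, 7.12, 6.77, 6.69 and 6.69 in TCDD testes 1 to 5, against 7.20, 7.23, 7.27, 7.96 and 7.12 in DMSO testes 1 to 5. All TCDD values lay below all DMSO values, but only just: the highest TCDD value was 7.116 and the lowest DMSO value 7.121. Mean levels were 6.84 ± 0.19 in TCDD testes, against 7.35 ± 0.34 in DMSO testes (SD, n = 5 each), and they differed by -0.52 (95% CI -0.90 to -0.14, limma unadjusted p = 0.0125, adjusted p = 1.00). DMSO 4 was the high point, and without it the difference was -0.36 (limma unadjusted p = 0.0164). The probe was of middling brightness, at the 56.6 percentile. Skeletal muscle markers were also lower in TCDD, with all 10 of them below 0 and a list mean of 6.49 to 6.75 in TCDD arrays and 6.62 to 7.64 in DMSO arrays. Most of these markers were dim: the list had a median percentile of 48.5, and only actc1b (88.1) lay above the upper quartile. In DMSO 4, where kcng1 was highest, the muscle mean was the lowest of the DMSO arrays. Whether muscle cells were present was not tested, nor was their part in the kcng1 difference.

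The share of genes that pass sets the scale for this. Of all 19260 genes 0% passed a limma adjusted p of 0.05, 2.48% had an unadjusted p under 0.05, and for 0.493% the groups did not overlap. Among the 106 channel genes 0 passed after adjustment, and 1 (0.943%) passed each of the other criteria, which was kcng1 both times. The count at an unadjusted p was therefore below the background share, and the count without overlap was a single gene. DMSO 1 and TCDD 2 had the highest means of the intestine and pancreas markers. Without both of them, 5 channel genes had an unadjusted p under 0.05 (4.72%, against 6.18% of all genes) and 0 passed after adjustment. TCDD 3, where the intestine gene fabp2 was also high, stayed in.

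Partner and sister genes of kcng1 had intervals that included 0. Of the kcnb genes measured, kcnb2a averaged 7.51 ± 0.23 in TCDD testes, against 7.37 ± 0.46 in DMSO testes (SD, n = 5 each), and differed by 0.14 (95% CI -0.33 to 0.62), and kcnb2b differed by -0.082 (95% CI -0.52 to 0.36). The other kcng genes had differences of -0.11 for kcng3, 0.086 for kcng4a, 0.13 for kcng2 and 0.25 for kcng4b. For kcng4b, at the 39.0 percentile, the 95% CI was -0.061 to 0.56. Without DMSO 1 its limma unadjusted p was under 0.05 and its groups did not overlap, with higher values in TCDD. Whether kcng1 differed from its relatives in its response was not tested.

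For the brightest channel genes the interval of the difference between TCDD and DMSO testes included 0. kcnj13 read 10.43, 10.17, 10.45, 10.10 and 10.39 in TCDD testes 1 to 5, against 9.29, 10.22, 10.62, 10.61 and 10.61 in DMSO testes 1 to 5. The groups overlapped, and DMSO 1 was the lowest array by a wide margin. The difference was 0.035 (95% CI -0.51 to 0.58), and -0.21 without DMSO 1. kcnn1b read 10.25, 9.46, 9.88, 9.66 and 9.96 in TCDD testes, against 7.49, 9.75, 10.20, 10.16 and 9.91 in DMSO testes. Again DMSO 1 alone was low, and the difference of 0.34 (95% CI -0.68 to 1.36) became -0.16 without it.

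The sodium-activated channel gene kcnt1a had a low array in each group. It read 8.96, 9.50, 9.40, 8.17 and 9.09 in TCDD testes 1 to 5, against 8.03, 9.11, 9.64, 9.69 and 9.68 in DMSO testes 1 to 5. TCDD 4 and DMSO 1 were the low ones, and the other arrays of the 2 groups overlapped. The difference was -0.21 (95% CI -0.98 to 0.57), with -0.51 without DMSO 1 and 0.0071 without TCDD 4. The accessory subunit gene kcnab1b read 8.98, 8.999, 8.63, 8.67 and 8.67 in TCDD testes, against 8.46, 9.20, 9.08, 9.07 and 9.18 in DMSO testes. Every TCDD value lay below DMSO 2 to 5 and above DMSO 1. The difference was -0.20 (95% CI -0.56 to 0.15), and -0.34 without DMSO 1.

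Another 3 bright genes had higher means in TCDD testes, with intervals that included 0. kcnn4 read 9.30, 8.68, 8.45, 8.37 and 9.02 in TCDD testes 1 to 5, against 7.55, 7.95, 8.92, 8.55 and 8.33 in DMSO testes 1 to 5. The groups overlapped between 8.37 and 8.92, and the difference was 0.51 (95% CI -0.085 to 1.096, limma unadjusted p = 0.0860, adjusted p = 1.00). With single arrays left out it ranged from 0.33 (without DMSO 1) to 0.67, and without DMSO 3 its limma unadjusted p was under 0.05. kcnj5 read 8.42, 8.19, 8.52, 10.23 and 9.44 in TCDD testes, against 8.14, 8.08, 7.88, 8.81 and 9.25 in DMSO testes. TCDD 4, TCDD 5 and DMSO 5 were the high ones, and the difference was 0.53 (95% CI -0.37 to 1.42). With single arrays left out it ranged from 0.21 (without TCDD 4) to 0.73. kcnk6 read 9.32, 8.85, 8.66, 8.65 and 8.83 in TCDD testes, against 8.78, 8.19, 9.13, 8.53 and 8.59 in DMSO testes. Its groups overlapped for most arrays, and the difference was 0.22 (95% CI -0.20 to 0.64), with 0.10 without TCDD 1 and 0.11 without DMSO 2. The highest value with a single array left out was 0.34. Markers of the somatic cells of the testis were also higher in TCDD, but so were most genes of several other lists. Higher in TCDD were 11 of 12 spermatogenic markers, 11 of 11 intestine and pancreas markers, 6 of 6 endothelium markers and 6 of 6 oocyte markers. Of the neuron and glia markers 3 of 9 were higher, and of the skeletal muscle markers 0 of 10. The mean of 6 Sertoli cell markers was 10.4 to 11.7 in TCDD arrays and 9.68 to 11.02 in DMSO arrays, highest in TCDD 4 and TCDD 5. In DMSO 5, where kcnj5 was also high, that mean was 10.6. In TCDD 4, where that mean was highest, kcnn4 (8.37) and kcnk6 (8.65) had their lowest TCDD values. The mean of 8 Leydig cell markers was 9.41 to 10.1 in TCDD arrays and 7.81 to 9.67 in DMSO arrays. DMSO 1 was the lowest array for both lists. All 7 measured hepatocyte markers were higher in TCDD as well, with a mean of 7.52 to 11.04 in TCDD arrays and 6.96 to 8.04 in DMSO arrays, highest in TCDD 5. Their part in the values of these channel genes was not tested.

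**Figure D2:**
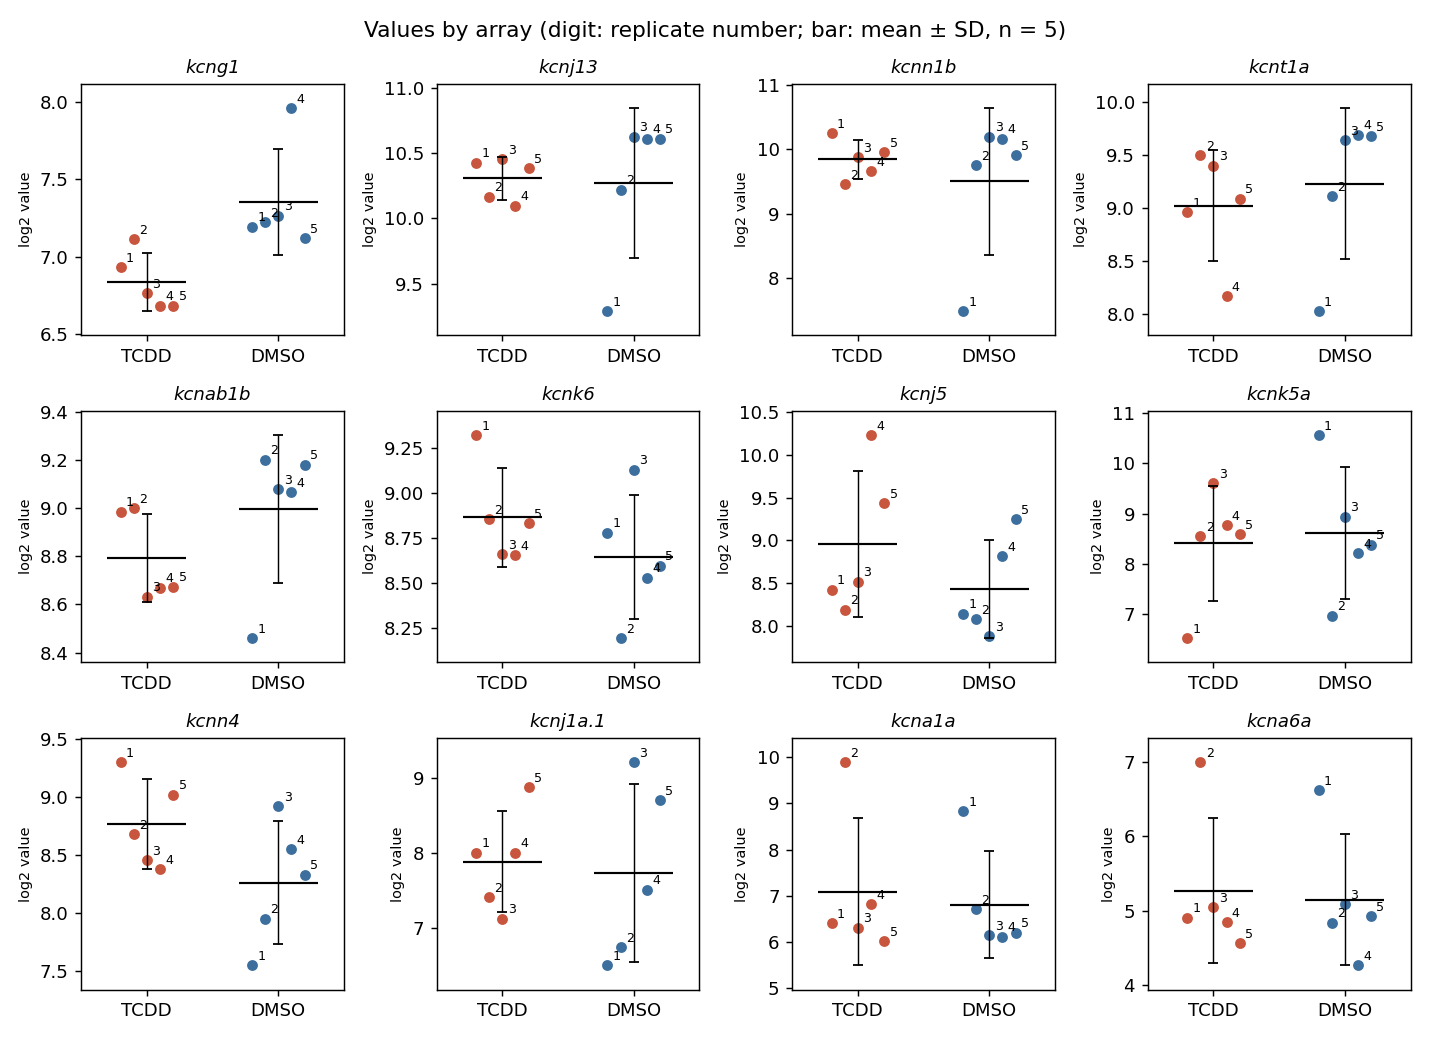
Log2 values (y axis of each panel) in the 5 TCDD and 5 DMSO testes for 12 channel genes. Points are arrays with their replicate number, and bars give the mean ± SD. For kcng1 the TCDD points end at 7.116, just under the lowest DMSO point at 7.121, while the groups overlap in each of the other panels.

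The brightest members of the remaining subfamilies also had close means. kcnd1 averaged 8.37 ± 0.12 in TCDD testes, against 8.36 ± 0.32 in DMSO testes (SD, n = 5 each, as for the values that follow), and kcnv1 8.15 ± 0.35 in TCDD against 8.35 ± 0.32 in DMSO. For kcnc3a, which encodes a fast voltage-gated channel, the means were 8.03 ± 0.17 in TCDD and 8.02 ± 0.20 in DMSO. For kcnq5b, of the slow M-current channels, they were 7.53 ± 0.12 in TCDD and 7.58 ± 0.12 in DMSO, and for kcna4 7.36 ± 0.21 in TCDD and 7.24 ± 0.18 in DMSO. The silent subunit genes kcnf1a and kcng3 averaged 7.37 ± 0.14 and 7.13 ± 0.11 in TCDD, against 7.32 ± 0.31 and 7.24 ± 0.26 in DMSO, and kcns3a 7.22 ± 0.31 in TCDD against 7.00 ± 0.28 in DMSO. kcnip2 averaged 7.08 ± 0.13 in TCDD and 7.13 ± 0.16 in DMSO, kcne4 6.99 ± 0.18 in TCDD and 6.93 ± 0.17 in DMSO, and kcnma1b 6.398 ± 0.27 in TCDD and 6.24 ± 0.42 in DMSO. Their differences lay between -0.20 for kcnv1 (95% CI -0.65 to 0.24) and 0.22 for kcns3a (95% CI -0.18 to 0.62), and every interval included 0.

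Over all 106 genes 57 were above 0 and 49 below, with a median difference of 0.012, beside 0.018 over all genes tested. Differences ran from -0.52 for kcng1 to 0.53 for kcnj5, and 74 genes lay within 0.15 of 0. The 95% interval lay wholly inside a 1.5-fold change in either direction for 80 genes and inside a 2-fold change for 98. For these a change of that size in the mean signal is outside the interval. No detection call was used, so for a dim probe this need not bound the change in the transcript. By subfamily the median difference was 0.036 for the 30 kcnj genes, 0.030 for the 19 kcnk genes, 0.073 for the 8 kcna genes, 0.054 for the 5 kcnn genes, -0.056 for the 6 kcnq genes and -0.084 for the 7 kcnip genes. Genes above 0 numbered 18, 11, 5, 4, 2 and 2 of these in turn. Genes of 1 subfamily could have opposite signs, as with kcng1 at -0.52 and kcng4b at 0.25.

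Only kcnc3b, kcnj3b and kcnq3 had more than 1 probe. The 2 probes of kcnj3b (0.26 and 0.23) and of kcnq3 (0.24 and 0.35) had the same sign, while those of kcnc3b (-0.15 and 0.15) did not.

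**Figure D3:**
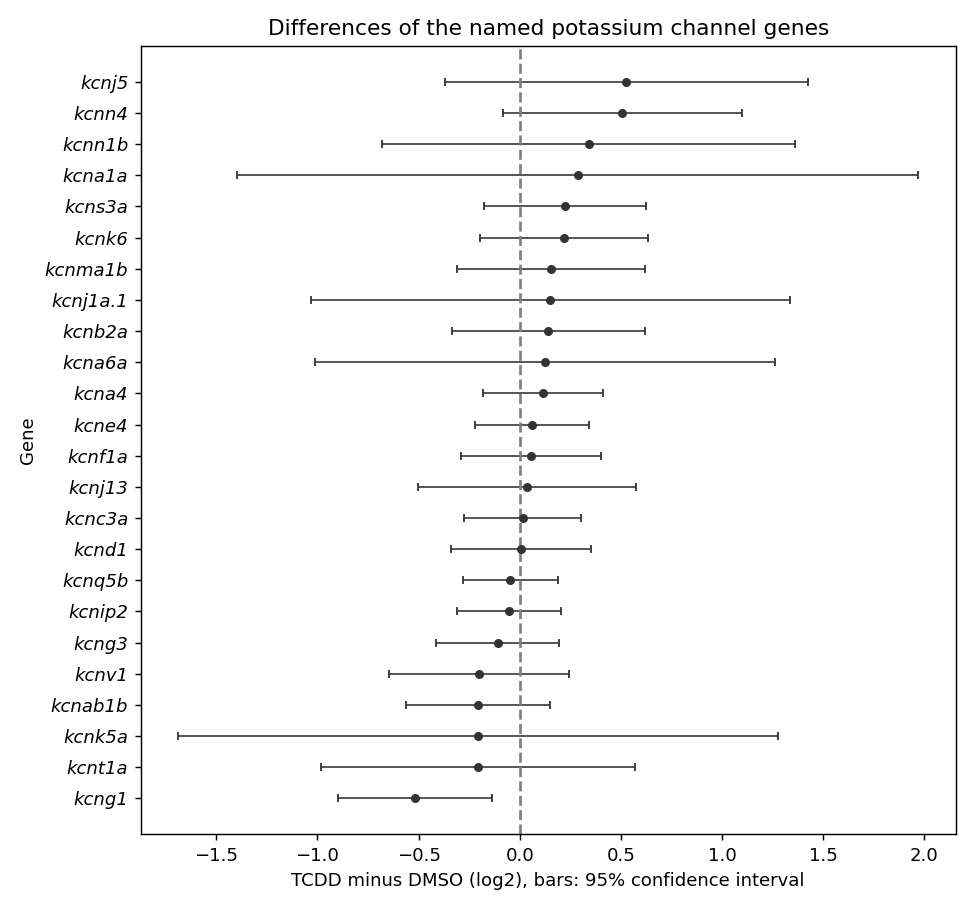
TCDD minus DMSO on the log2 scale (x axis) with the 95% confidence interval from limma for 24 channel genes (y axis), ordered by difference. The interval of kcng1, from -0.90 to -0.14, is the only one that does not include 0.

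Spread between arrays set a few channel genes apart more than the exposure did. The within-group SD pooled over both groups had a median of 0.23 over the 106 genes, beside 0.29 over all genes, and exceeded 0.5 for 8 of them (7.55%, against 18.2% of all genes). The widest were kcna1a (1.39), kcnk5a (1.22), kcnj1a.1 (0.97), kcna6a (0.93) and kcnn1b (0.83). DMSO 1 was the array with the lowest value for 24 of the 106 genes (22.6%, against 28.8% of all genes) and with the highest for 26 (24.5%, against 22.9%). TCDD 5 was lowest for 18 (17.0%, against 8.8% of all genes) and highest for 0 (against 5.4%). DMSO 4 was lowest for 17 (16.0%, against 8.4%) and highest for 4 (3.8%, against 8.0%).

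The voltage-gated channel genes kcna1a and kcna6a, known from neurons, were high in the same pair of arrays, 1 from each group. kcna1a read 6.41, 9.89, 6.31, 6.81 and 6.01 in TCDD testes 1 to 5, against 8.82, 6.71, 6.15, 6.11 and 6.20 in DMSO testes 1 to 5. kcna6a read 4.91, 7.00, 5.05, 4.84 and 4.56 in TCDD testes, against 6.62, 4.84, 5.08, 4.26 and 4.92 in DMSO testes. TCDD 2 and DMSO 1 stood above the other 8 arrays, which lay between 6.01 and 6.81 for kcna1a and between 4.26 and 5.08 for kcna6a. In RefSeq's gene order for zebrafish (assembly GRCz12tu) the genes are direct neighbours, and a transcript that spans both was not looked for. kcna6a was dim, at the 21.9 percentile. Their differences were 0.29 (95% CI -1.40 to 1.97) and 0.12 (95% CI -1.01 to 1.26), and each took the other sign without TCDD 2, at -0.41 and -0.31.

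TCDD 2 and DMSO 1 were also the arrays with the highest intestine and pancreas means, at 11.4 and 12.1. That list averaged 10.0 in TCDD 3 and 9.60 in TCDD 4. In those arrays kcna1a read 6.31 and 6.81, and kcna6a read 5.05 and 4.84. The intestinal peptide transporter gene slc15a1b read 12.1 in TCDD 2 and 10.1 in DMSO 1, and also 10.3 in TCDD 3. The 9 measured markers of neurons and glia did not follow: their mean was 7.20 in TCDD 2 and 7.26 in DMSO 1, within the range of 7.14 to 7.46 over all arrays. The 6 leukocyte markers averaged 8.70 in TCDD 2 and 8.45 in DMSO 1, and 7.07 to 7.78 in the others. Single genes of that list differed: ptprc and mpeg1.1 were highest in these arrays, while mpx read 10.8 in TCDD 2 and 7.38 in DMSO 1. For lyz the values there were 7.25 and 7.90, against 8.39 in DMSO 5. The part of any of these cells in the kcna signal was not tested.

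The tandem-pore channel gene kcnk5a, whose mammalian counterpart opens at alkaline pH in kidney and other epithelia, varied over the widest range of all members. It read 6.53, 8.55, 9.61, 8.77 and 8.60 in TCDD testes 1 to 5, against 10.56, 6.97, 8.94, 8.22 and 8.38 in DMSO testes 1 to 5. TCDD 1 and DMSO 2 were low, and DMSO 1 and TCDD 3 high, and the groups overlapped between 6.97 and 9.61. The difference was -0.21 (95% CI -1.69 to 1.28), and 0.28 without DMSO 1. Of the intestine markers, fabp2, a fatty acid binding protein gene of enterocytes, was likewise highest in DMSO 1 (12.1) and TCDD 3 (11.7), but it was nearly as high in TCDD 2 (11.4), where kcnk5a was not. DMSO 3 and TCDD 4, next highest for kcnk5a (8.94 and 8.77), had fabp2 at only 6.05 and 6.53. Another intestine marker, slc15a1b, was highest in TCDD 2 (12.1). The relation of kcnk5a to these markers was not tested. The paralog kcnk5b varied little, with a pooled SD of 0.23 and a difference of 0.054 (95% CI -0.28 to 0.39).

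In the same gene order kcnj1a.1 belongs to a row of 6 adjacent kcnj1a genes, related to the kidney channel ROMK of mammals, that lies next to kcnj5. It read 8.005, 7.41, 7.12, 8.004 and 8.88 in TCDD testes 1 to 5, against 6.50, 6.74, 9.22, 7.51 and 8.71 in DMSO testes 1 to 5. DMSO 3, TCDD 5 and DMSO 5 were high and DMSO 1 and 2 low, and the difference was 0.15 (95% CI -1.03 to 1.34). The other 5 genes of the row were dim, at percentiles of 5.46 (kcnj1a.5) to 36.5 (kcnj1a.4), with pooled SDs of 0.18 to 0.44. Transcripts of such near copies may bind each other's probes, so their separate values are uncertain.

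Genes low in DMSO 1 included several of the bright ones. Against 9.46 to 10.2 in every other array kcnn1b was at 7.49 there, kcnj13 was at 9.29 against 10.1 to 10.6, and kcnd1 was at 7.79 against 8.23 to 8.57. The spermatogenic markers had their lowest mean in the same array. Over the other arrays TCDD 2, with the second lowest spermatogenic mean at 10.1, also had the lowest kcnn1b (9.46) and kcnd1 (8.23) values. For kcnd1 TCDD 5 was close, at 8.25, and outside DMSO 1 kcnj13 was lowest in TCDD 4 (10.10). The bright genes kcnt1a and kcnab1b were also lowest in DMSO 1, yet had their highest TCDD values in TCDD 2 (9.50 and 8.999). The part of germ cells in these values was not tested.

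**Figure D4:**
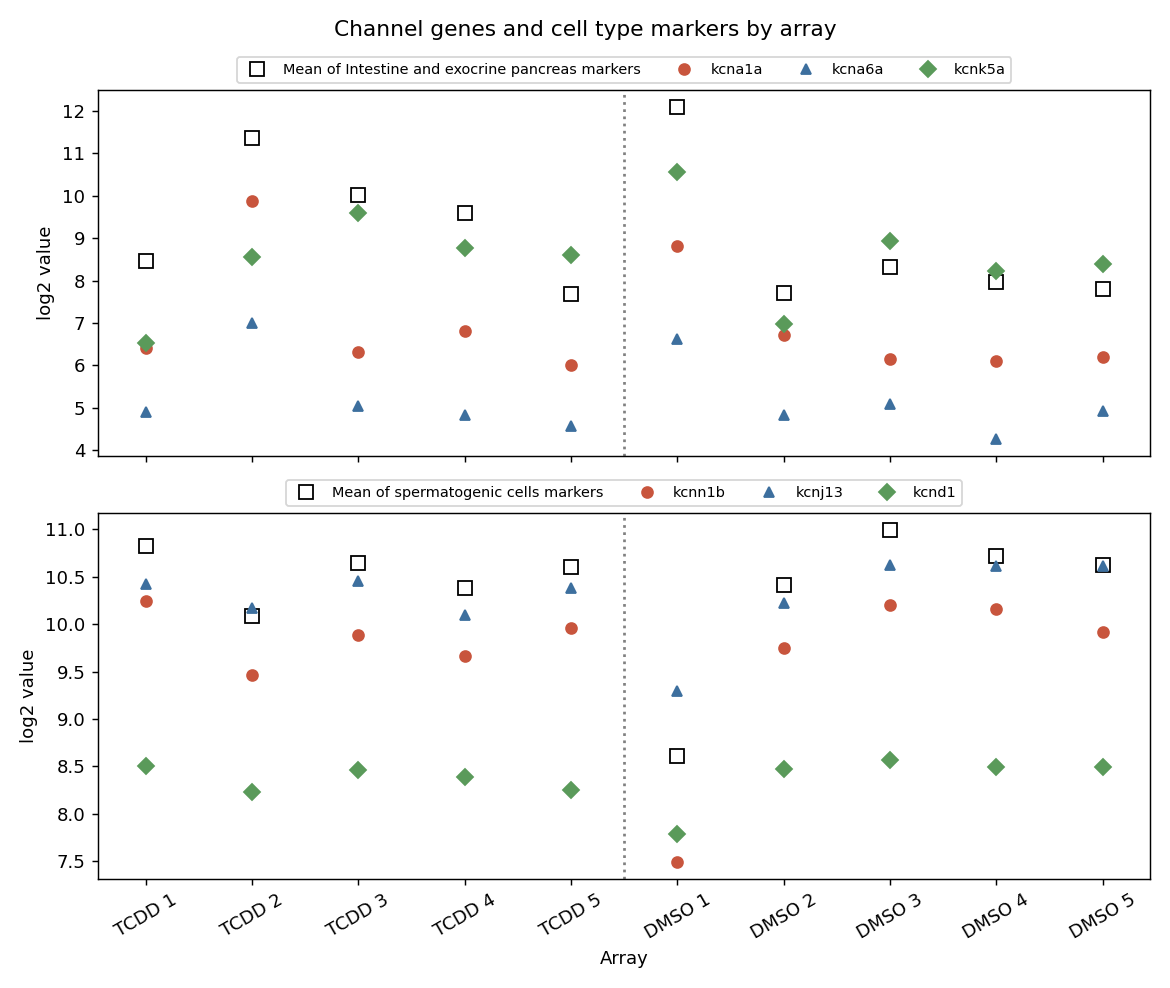
Log2 values by array (x axis, TCDD then DMSO) for kcna1a, kcna6a and kcnk5a with the mean of 11 intestine and exocrine pancreas markers (upper panel), and for kcnn1b, kcnj13 and kcnd1 with the mean of 12 spermatogenic cell markers (lower panel). kcna1a and kcna6a peak in TCDD 2 and DMSO 1, and the 3 genes of the lower panel are lowest in DMSO 1.

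Among other genes of potassium handling and membrane voltage, none passed after adjustment. Of 87 genes measured in 8 lists, 2 were higher and 2 lower in TCDD at an unadjusted p under 0.05 (4.60%, against 2.48% of all genes), and 0 passed a limma adjusted p of 0.05, with a median difference of -0.019. These lists were chosen with earlier results of these data known, so the share over them is a description only. Both higher genes came from the EAG-type list of 8 kcnh genes: kcnh1a at 1.21 (95% CI 0.74 to 1.69) and kcnh7 at 0.74 (95% CI 0.23 to 1.25). They were at the 83.1 and 74.6 percentiles, and the groups overlapped for kcnh7 but not for kcnh1a. The lower ones were cnga1a, a cyclic-nucleotide-gated channel gene, at -0.49 (95% CI -0.88 to -0.088), 1 of 11 HCN and CNG genes, and atp1b2b, a beta subunit of the sodium pump, at -0.33 (95% CI -0.66 to -0.0077), 1 of 19 sodium pump and FXYD genes. cnga1a was dim, at the 35.2 percentile, atp1b2b was at 48.8, and the groups of both genes overlapped. At that level 0 of 13 cation chloride cotransporter, 0 of 14 voltage-gated calcium channel, 0 of 13 voltage-gated sodium channel, 0 of 6 channel partner and 0 of 3 intracellular potassium channel genes passed.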

How the data were processed

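The deposited table holds processed values that were read as log2 expression, since they run from 1.25 to 14.6 with array medians of 6.71 to 6.87. How the authors made these log2 values (background correction, normalization) is not given in the sources used here. Of 75212 probes, 20806 had 1 gene symbol in the platform annotation, 855 several and 53551 none. The 109 probes of the 106 channel genes all matched RefSeq by Entrez identifier, and 0 columns were left unassigned. TCDD and DMSO were compared across all 19260 genes with limma 3.58.1 in R 4.3.3 (linear model on group, empirical Bayes), with Benjamini-Hochberg adjustment over all genes. The fit was also run on simulated arrays, drawn as independent normal values with 1 SD per gene. At an adjusted p under 0.05 it recovered 64.2% of 2-fold and 93.4% of 4-fold changes, and 4.5% of its calls were false. No simulated array differed from the rest as DMSO 1 did, so these rates need not hold for the real arrays.

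Genes were named as the brightest of each subfamily, those with an unadjusted p under 0.05 or groups that do not overlap, the 5 with the widest pooled SD and the 8 with the highest mean; other genes were singled out after their values were seen. The members, lists and rules were chosen with earlier results of these data known. Alternatives were the replicate number as a block, other variance models, weights per array, other scalings (quantile and median), brighter probes only, other probe rules, a plain test and each array left out. Protein sequences were not used here. The number of arrays limits the precision: the median standard error of a channel gene's difference was 0.15.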

Additional observations from a re-analysis of the deposited data

Results flagged for a closer look

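Among the 24 named genes, 48 groups of 5 arrays were examined with Dixon's ratio for a value far from the rest of its group, and 7 stood out. Chance gives about 1 in 20 for groups not picked by their values, which is not the rate here: 5 of the 7 belong to genes that were named for their wide spread or their group difference. Of the 7, 4 were values of DMSO 1: kcna1a at 8.82, against 6.71 or less in the other DMSO arrays, kcnab1b at 8.46, against 9.07 or more, kcnd1 at 7.79, against 8.47 or more, and kcnn1b at 7.49, against 9.75 or more. In TCDD 2 kcna1a was at 9.89, against 6.81 or less in the other TCDD arrays, and kcna6a at 7.00, against 5.05 or less. In DMSO 4 kcng1 was at 7.96, against 7.27 or less in the other DMSO arrays.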

How the results depend on the processing

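The count of channel genes at an unadjusted p under 0.05 was 1 and became 2 with the replicate block, 2 with the plain test, 3 after quantile normalization, 3 after median centring, 5 with array weights and 5 without DMSO 1 and TCDD 2 together, a setting chosen after seeing the data. As shares, channel genes had 1.89% with the block, against 2.07% of all genes, 1.89% with the plain test, against 2.98%, and 4.72% with array weights, against 7.27%. They had 3.77% without DMSO 1, against 6.65% of all genes, and 4.72% without DMSO 1 and TCDD 2, against 6.18%. After quantile normalization and median centring they had 2.83%, against 2.40% and 2.35% of all genes. The genes in both of these settings were kcng1, kcng4b and kcnip1a. With array weights kcng4b and kcnip1a were again among the genes, as was kcng4b without DMSO 1 and TCDD 2 together. The count ranged from 1 to 4 when single arrays were left out, with 4 without DMSO 1 (kcng1, kcnab1b, kcng4b and kcnk3b), 3 without TCDD 2 and 2 without TCDD 1, TCDD 4, DMSO 3 or DMSO 4. As a share that was 2.83% without TCDD 2, against 3.10% of all genes. It was 1.89% without TCDD 1, TCDD 4, DMSO 3 or DMSO 4, against 2.46%, 1.99%, 3.41% and 3.02% of all genes in turn. The count without overlap was 1, ranged from 1 to 3 with single arrays left out (3 without DMSO 1 or TCDD 2, 2 without DMSO 4) and was 5 without both DMSO 1 and TCDD 2. The share of all genes without overlap rose in these settings too, from 0.493%. It was 2.51% without DMSO 1, 1.15% without TCDD 2, 1.15% without DMSO 4 and 3.56% without both DMSO 1 and TCDD 2. No channel gene passed an adjusted p of 0.05 in limma under any alternative run. The median difference of 0.012 ranged from -0.025 to 0.030 with single arrays left out, and was 0.053 after median centring and 0.029 after quantile normalization, beside 0.059 and 0.018 over all genes. kcng1 stayed below 0 with an unadjusted p under 0.05 in all 19 alternatives (-0.63 to -0.36, p of 0.00399 to 0.0332, limma adjusted p of 0.630 to 1.00). These are not independent: they reuse the same arrays for a gene picked by its p. Several, such as the block and the plain test, cannot change its difference of -0.52.

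Of the 24 named genes 14 changed sign somewhere, all from differences that had intervals including 0. With array weights kcnc3a was at -0.089, kcnd1 at -0.099, kcnj13 at -0.15, kcnj1a.1 at -0.11, kcnk5a at 0.51 and kcnn1b at -0.061, and after quantile normalization kcnd1 was at -0.0066. Without DMSO 1 and TCDD 2 together kcnc3a was at -0.081, kcnd1 at -0.10, kcng3 at 0.0034, kcnj13 at -0.17, kcnj1a.1 at -0.039, kcnk5a at 0.25, kcnn1b at -0.068 and kcnq5b at 0.0061. With single arrays left out kcna1a ranged from -0.41 to 0.79, kcna6a from -0.31 to 0.49, kcnb2a from -0.033 to 0.26, kcnc3a from -0.070 to 0.069, kcnd1 from -0.14 to 0.057, kcnf1a from -0.016 to 0.19, kcnip2 from -0.10 to 0.00039, kcnj13 from -0.21 to 0.12, kcnj1a.1 from -0.16 to 0.52, kcnk5a from -0.62 to 0.28, kcnn1b from -0.16 to 0.51 and kcnt1a from -0.51 to 0.0071. The cause was not tested.

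Replicate numbers 1 to 5 recur in both groups. The labels do not say that they mark pairs, so the arrays were not treated as paired. Same-numbered arrays had correlations of their deviations from the group means of -0.58 to 0.29, and 0 of 5 TCDD arrays correlated best with its own number. Whether same-numbered arrays shared a batch was not tested. The block added kcnj5 to the channel genes at an unadjusted p under 0.05 (0.53, limma unadjusted p = 0.0477, adjusted p = 1.00). Its value was higher in TCDD in 5 of 5 same-numbered comparisons, but the numbers are not stated to mark pairs. Without the block its limma unadjusted p was 0.222. With the replicate block 398 genes of the whole table had an unadjusted p under 0.05, against 478 without it.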
